A study of Mus musculus with 7 samples.

Results

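The library described here pooled B cells of deep cervical, superficial cervical and inguinal lymph nodes of both genotypes, 5xFAD and WT, into 1 single-cell B cell receptor library. Its cells were all barcodes with exactly 1 productive heavy chain, 2488 of 19869 such cells in the 7 libraries. Cells carried hashtags, but hashtag counts were not used here, so a cell's node and genotype were not assigned. For that reason the library was compared with no genotype or node, and the other 6 libraries served as a range. Those 6 libraries held 3904 cells of the 5xFAD deep cervical nodes (dCLN), 3374 of the WT dCLN, 2356 of the 5xFAD superficial cervical nodes (sCLN), 3440 of the WT sCLN, 2107 of the 5xFAD inguinal nodes (iLN) and 2200 of the WT iLN. All mice were females of 10 to 11 months. 5xFAD mice model Alzheimer's disease through transgenes that the Thy1 promoter drives in neurons, and WT mice lack these transgenes. How many animals entered each library, and whether the mixed library and the node libraries shared animals, is not given in the labels.

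A B cell receptor joins 2 heavy and 2 light chains. A heavy chain V, D and J segment are joined once per developing cell, with untemplated N bases at the joints, and this junction encodes CDR3, the most variable part of the receptor. Naive B cells make IgM and IgD from 1 transcript by splicing. After activation a cell can switch to IgG, IgA or IgE and acquire point mutations in its V segment, which happens mainly in germinal centres, and its progeny keep the junction and form a clone. Plasma cells, the antibody-secreting end stage, hold far more immunoglobulin RNA than other B cells. In mice of the C57BL/6 type the gene Ighg2c stands in the place of Ighg2a, and IgG2c is the class favoured by interferon gamma, whereas IgG1 is favoured by interleukin 4.

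The mixed library had 255020 UMIs on 6349 contigs, against 99906 to 312484 UMIs in the node libraries. Its cells were shallower, with a median of 8 heavy chain UMIs (node libraries 9 to 13), and 8.76% of its cells had 1 or 2 (node libraries 2.64% to 5.45%). Barcodes with light chains alone made up 16.9% (node libraries 6.57% to 13.0%), and barcodes with several heavy chains, which were left out, 5.51% (2.59% to 5.62%). All 7 libraries held 0 T cell receptor contigs, and every barcode carried an immunoglobulin chain by construction, so the B cell label could not be checked further without gene expression. With 1 mixed library no test between libraries was made. A share is given with its exact 95% interval, which covers counting error only, and is called separate from a node library where the 2 intervals do not overlap.

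Receptors that carry the results are shown first, as heavy chain junctions from the conserved cysteine codon to the conserved tryptophan codon, 5′ to 3′, as the authors' annotation lists them. All lie on chromosome 12. The largest clone, of IGHV5-17 (GRCm38, chromosome 12, 113859149 to 113859670, minus strand) and IGHJ2, had 8 cells, all IgG2c, with 4 junctions that show how its members diverged. Capitals mark bases that differ from the junction most common in the clone.
IGHV5-17 clone, 3 cells: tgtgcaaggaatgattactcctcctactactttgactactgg
IGHV5-17 clone, 2 cells: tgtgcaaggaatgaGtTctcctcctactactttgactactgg
IGHV5-17 clone, 2 other cells: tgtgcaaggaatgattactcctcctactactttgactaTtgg
IGHV5-17 clone, 1 cell: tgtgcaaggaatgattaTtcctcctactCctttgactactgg

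The next clone, of IGHV1-55 (chromosome 12, 115208095 to 115208591) and IGHJ2, had 7 IgG2c cells that shared 1 heavy junction, with no base that differed between them. A clone of 5 IgM cells used IGHV1-53 (115158403 to 115158835) and IGHJ3, and is shown because its cells were unswitched yet mutated. Capitals again mark differences from its most common junction.
IGHV1-55 clone, 7 cells: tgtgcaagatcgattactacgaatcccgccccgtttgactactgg
IGHV1-53 IgM clone, 2 cells: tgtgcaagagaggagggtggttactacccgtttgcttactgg
IGHV1-53 IgM clone, 1 cell: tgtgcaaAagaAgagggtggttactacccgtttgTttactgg
IGHV1-53 IgM clone, 1 other cell: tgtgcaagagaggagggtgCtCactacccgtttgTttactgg
IGHV1-53 IgM clone, a further cell: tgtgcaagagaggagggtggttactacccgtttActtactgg

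Class-switched cells made up 6.93% of the mixed library (95% interval 5.95% to 8.01%, 169 of 2439 cells with an isotype). The node libraries had 4.11% in the 5xFAD dCLN, 4.10% in the WT dCLN, 2.90% in the 5xFAD sCLN, 4.23% in the WT sCLN, 1.20% in the 5xFAD iLN and 1.43% in the WT iLN. The mixed share stood above and separate from all 6, and any pooling of those 6 libraries would have a share between 1.20% and 4.23%. The excess lay in IgG, at 6.48% of cells (5.53% to 7.53%) against 1.10% to 3.97%, again separate from all 6. IgA, the class of mucosal antibodies, was inside the range, at 0.451% (11 cells) against 0.0960% to 0.569%. No IgE cell was found, which allows a share of up to 0.123%. No IgG2a call was found either. Mice of the C57BL/6 type have Ighg2c in its place, so no limit is drawn from this.

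IgG2c was the leading class. It made up 3.57% of all cells (2.87% to 4.38%, 87 cells), against 0.931%, 1.66%, 0.896%, 1.44%, 0.144% and 0.231% in the 5xFAD dCLN, WT dCLN, 5xFAD sCLN, WT sCLN, 5xFAD iLN and WT iLN. The mixed value was 2.15 times the highest of these and separate from all 6. The gene lies at 113285325 to 113288932 of chromosome 12 (GRCm38), next to IGHG2B at 113302965 to 113307933. IgG2b, at 2.38% (58 cells) against 0.508% to 1.58%, was also above every node library but separate from only 3. IgG3, which is directed largely against bacterial polysaccharides, had 9 cells, at 0.369% against 0% to 0.207%.

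IgG1 went the other way. It was found in 4 cells, 0.164% of the mixed library (0.0447% to 0.419%), against 0.828% in the 5xFAD dCLN, 0.392% in the WT dCLN, 0.811% in the 5xFAD sCLN, 0.999% in the WT sCLN, 0.336% in the 5xFAD iLN and 0.508% in the WT iLN. It was below all 6 and separate from 3. As a share of switched cells, IgG1 was 2.37% (0.649% to 5.95%) in the mixed library, against 20.1%, 9.56%, 27.9%, 23.6%, 28.0% and 35.5% in the same order of libraries, and was separate from 5 of them. IgG2c was 51.5% of switched cells (43.7% to 59.2%) against 12.0% to 40.4%, separate from 5. IgG2b (34.3% against 32.4% to 52.0%) and IgA (6.51% against 5.88% to 13.8%) kept to the range, and IgG3 (5.33% against 0% to 5.03%) was just above it.

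These cells were not all independent. The 87 IgG2c cells fell into 60 clones, the 58 IgG2b cells into 50, the 9 IgG3 cells into 4, and the 4 IgG1 and 11 IgA cells into as many clones as cells. Counting each clone once, the switched share was 5.40% (4.51% to 6.40%), still above all 6 but separate from 5. IgG2c was then 46.8% of switched clones and separate from 3 of the 6 libraries, and IgG1 3.23% and separate from 5.

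**Figure D1:**
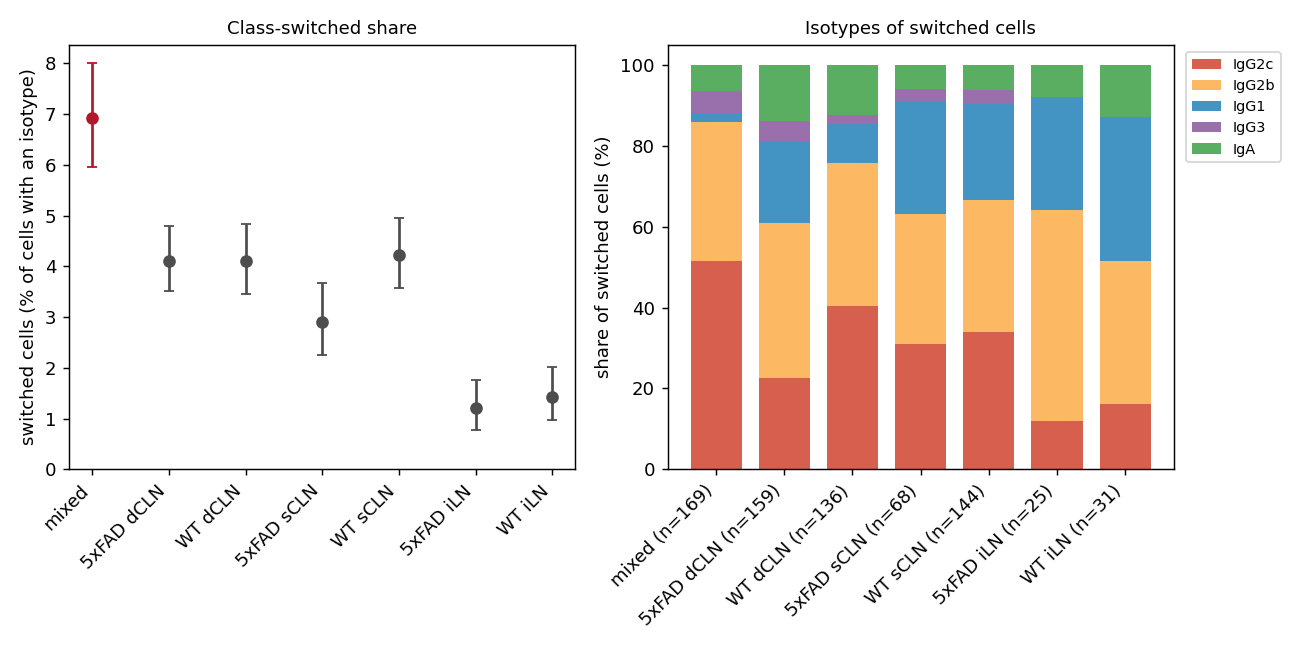
Left, class-switched cells as a share of cells with an isotype in each library (points) with exact 95% intervals (bars). The mixed library, at 6.93%, stands above the 6 node libraries, at 1.20% to 4.23%. Right, isotypes as stacked shares of the switched cells, with their number n. The IgG2c segment is largest and the IgG1 segment smallest in the mixed library.

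Among unswitched cells, IgD calls made up 24.0% (22.2% to 25.8%) and IgM calls the rest, inside the node range of 16.4% to 27.9%. Naive cells make both classes from 1 transcript, and the call moved with depth. In the mixed library IgD was 55.4% of cells with 1 or 2 heavy UMIs, 51.2% with 3 to 5, 21.2% with 6 to 10, 6.27% with 11 to 20, and 0.465%, or 1 of 215 cells, with 21 or more. The node libraries in the same bins had 50.7% to 69.8%, 45.3% to 63.5%, 22.2% to 29.4%, 6.26% to 18.7% and 1.18% to 6.33%. With every library weighted to the UMI distribution of the 6 node libraries pooled, the mixed IgD share was 17.2%, below the weighted node range of 19.3% to 24.8%.

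Switched cells of the mixed library carried mutated V segments to about the extent seen in the nodes. V mutation, the percent of V bases that differ from the germline, averaged 2.26% (SD over cells 2.13, n = 169 cells), against means of 2.19% to 2.87%. At least 1% mutation was found in 69.2% of switched cells (61.7% to 76.1%) against 63.5% to 80.6%, and no mismatch in 17.2% against 12.9% to 24.0%. By class, the mean was 2.08% in IgG2c, 2.32% in IgG2b, 4.00% in the 4 IgG1 cells, 3.31% in IgG3 and 1.91% in IgA, with SDs over cells of 1.62, 2.76, 3.10, 1.94 and 1.46. The differences between classes were not tested. The light chains of switched cells had a mean V mutation of 1.54% (SD 1.85, n = 167), below the 1.68% to 2.26% of the nodes. With each clone counted once, the heavy chain mean was 1.89%, below the node range of 2.23% to 2.85%.

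Mutated unswitched cells were more frequent than in any node library. Of 2269 unswitched cells with an alignment, 37 had at least 1% V mutation, a share of 1.63% (1.15% to 2.24%). The node libraries had 0.513% in the 5xFAD dCLN, 0.692% in the WT dCLN, 0.572% in the 5xFAD sCLN, 0.645% in the WT sCLN, 0.292% in the 5xFAD iLN and 0.328% in the WT iLN, and the mixed share was separate from all 6. Of the 37 cells, 30 were IgM and 7 IgD. They fell into 30 clones, 13 lay in clones of 2 or more cells, and 1 was in a clone with a switched cell. The 2 cells of that last clone had different light chain junctions. Their median was 12 heavy UMIs, above the 8 of all cells. Their light chains had a mean V mutation of 0.687%, below the 0.883% to 1.35% of such cells in the node libraries, and 0.138% in all unswitched cells of the mixed library.

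Some of these mismatches were shared by every unswitched cell of a V call and so are not particular to single cells. All 4 unswitched cells called IGHV1-87, each IgD, had 18 mismatches, and a second annotation deposited in the same table calls them IGHV1-2, which GENCODE lists as a pseudogene (chromosome 12, 114469075 to 114469535). The IGHV1-87 call was made on 5 contigs of the mixed library and on 0 of the node libraries. These 4 cells were among the 7 mutated IgD cells above. All 30 unswitched cells whose call named 2 IGHV1-69 alleles jointly had at least 1 mismatch, as did all 221 such cells in the node libraries. Without V calls of this kind, 32 cells or 1.43% (0.981% to 2.02%) remained, separate from 5 of the 6 libraries. Mismatches not common to most cells of a call were not screened. Cells of IGHV1-76 with 15 and 12 mismatches and no light chain mutation remained, as did another with 19 mismatches and 1.37% light chain mutation. At a stricter limit of 2% mutation, with all V calls kept, the share was 0.661%, above the node range of 0.0972% to 0.346% and separate from 1. The 4 IGHV1-87 cells and the IGHV1-76 cells just named were among those counted. Counting each clone once, again with all V calls kept, gave 1.34%, separate from 3. Among the 37, the IGHV1-53 IgM clone printed above gave 5 cells, with 1.03% to 3.06% mutation and up to 112 heavy UMIs, all with IGKV3-7 and IGKJ2. An IGHV1-75 clone, picked out after its values were seen, gave 2 IgM cells with 50 and 51 heavy UMIs and 1 identical junction.

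**Figure D2:**
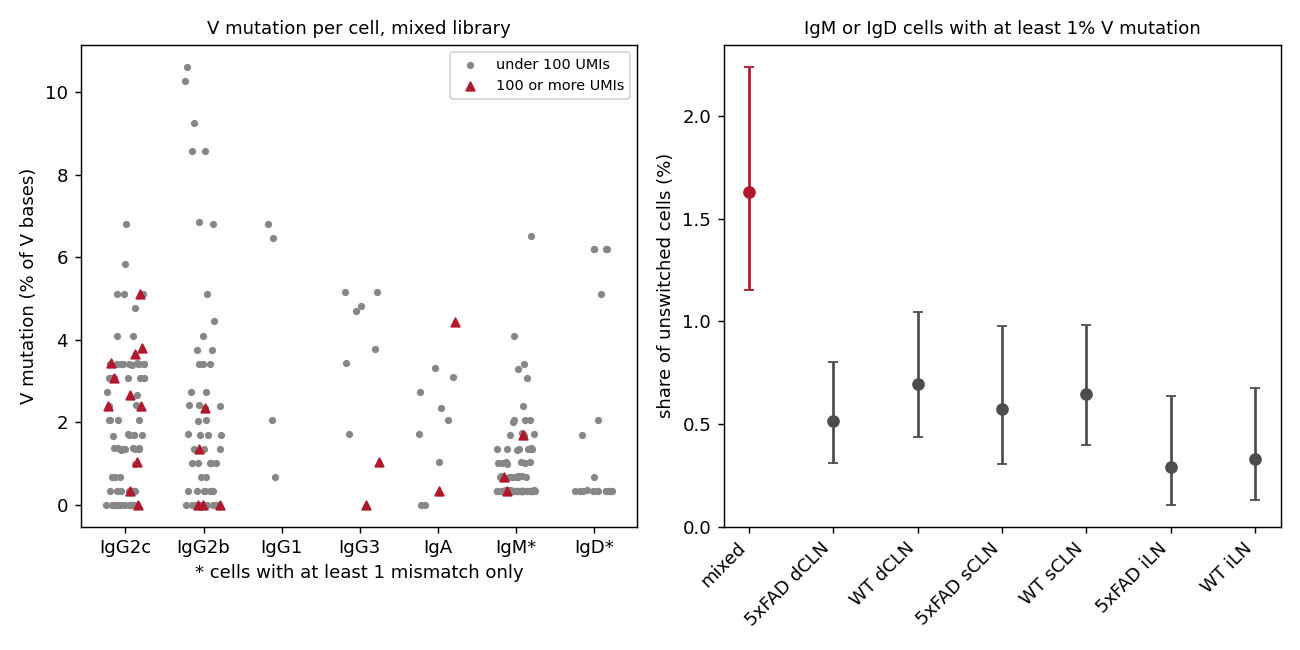
Left, V mutation of each cell of the mixed library by isotype, with triangles for cells of 100 or more heavy UMIs; for IgM and IgD, cells without a mismatch (1630 of 1725 and 521 of 544) are not drawn. Right, the share of IgM or IgD cells with at least 1% V mutation in each library, with exact 95% intervals. The mixed library stands at 1.63% and the node libraries at 0.292% to 0.692%.

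Clones were cells with the same V and J gene and junction length and junctions within 15% of each other. At an equal 2107 cells per library, 9.05% of cells of the mixed library lay in clones of 2 or more, inside the node range of 6.89% to 13.0%. Within that total, switched and unswitched cells stood apart. Of the switched cells, 42.6% (35.0% to 50.4%, 72 of 169) were in clones, against 29.6% in the 5xFAD dCLN, 45.6% in the WT dCLN, 17.6% in the 5xFAD sCLN, 22.2% in the WT sCLN, 4.00% in the 5xFAD iLN and 16.1% in the WT iLN, separate from 4. Of the unswitched cells, 7.75% (6.69% to 8.93%) were in clones, against 8.99% to 17.9%, below all 6 and separate from 4. These 2 shares were not thinned, and larger libraries find more clones. The 106 clones of 2 or more cells included 28 with a switched cell (node libraries 1 to 25) and 6 with both switched and unswitched cells (1 to 6). None of these 6 had the same light chain in all its cells, so common descent of their switched and unswitched cells was not established.

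The IGHV5-17 clone had 2.72% to 5.10% V mutation (mean 3.78%) and 3 to 36 heavy UMIs, and 6 of its 8 cells shared IGKV13-84 and IGKJ1. IGHV5-17, looked at because it held the largest clone, had 17 switched cells in 8 clones, and 8 of these cells were that clone. That was 10.1% of switched cells, against 0% to 2.78% in the nodes, while 2.16% of unswitched cells of the mixed library used the gene. Other V genes reached such shares of switched cells in single node libraries, up to 12.9% for IGHV5-16 and 12.0% for IGHV1-82. Those 2 values came from the WT iLN and the 5xFAD iLN, which had only 31 and 25 switched cells. The IGHV1-55 clone differed from the others in its counts. Its 7 cells had 1 to 3 heavy UMIs and 2 to 14 light UMIs each, 1 heavy and 1 light junction (IGKV3-7, IGKJ2) and 3.40% mutation throughout. The same light junction occurred in 6 further barcodes that had no heavy chain, and reached 14 UMIs at most in any barcode. Barcodes with a clone's light junction and no heavy chain were also found for the clones of IGHV2-9-1 (7), IGHV1-82 (5), IGHV5-17 (3) and IGHV1-53 (1). The light junctions of these 4 clones were also in 69, 37, 0 and 9 barcodes with another heavy chain, in that order, and that of IGHV1-55 in 0. Where a light junction recurs beside other heavy chains, a barcode without a heavy chain need not belong to the clone. Without the 2 largest clones of each library the switched share was 6.35%, separate from all 6, and the IgG2c share of switched cells 46.8%, separate from 3.

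The other clones of 5 cells were each of 1 class. An IgG3 clone of IGHV1-82 and IGHJ4 had a mean mutation of 4.47%, a CDR3 of 9 amino acids and IGKV1-117 with IGKJ2 in every cell, and gave 5 of the 9 IgG3 cells. An IgG2c clone of IGHV2-9-1 and IGHJ1 had 1.57% mutation on average and the lambda chain IGLV1 in every cell. Among clones of 4, chosen after their values were seen, IgG2b cells of IGHV14-1 and IGHJ2 with IGKV1-135 had the most mutated V segments, 6.85% to 10.6%. Their junctions are short, and 3 forms were found, with capitals for differences from the most common.
IGHV14-1 IgG2b clone, 2 cells: tgttctagggccaacttcgactactgg
IGHV14-1 IgG2b clone, 1 cell: tgCtctagggccaaTttcgactactgg
IGHV14-1 IgG2b clone, 1 other cell: tgttctagggccCacttcgactactgg

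Cells with 100 or more heavy UMIs numbered 30, or 1.23% (0.831% to 1.75%). The node libraries had 0.414% in the 5xFAD dCLN, 0.634% in the WT dCLN, 0.171% in the 5xFAD sCLN, 0.676% in the WT sCLN, 0.0480% in the 5xFAD iLN and 0.138% in the WT iLN. The mixed share was above all 6 and separate from 4. UMI counts alone do not define plasma cells, whose other transcripts were not used here. By class the 30 cells were 11 IgG2c, 10 IgM, 5 IgG2b, 2 IgG3 and 2 IgA, with no IgG1 and no IgD cell, and they belonged to 27 clones. They held 66.0% of all heavy UMIs of the library, against 1.24% to 57.9%, and 14 of them had 1000 or more.

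Of switched cells, 11.8% (7.38% to 17.7%) were of this kind, against 6.92%, 11.0%, 0%, 10.4%, 4.00% and 0% in the 5xFAD dCLN, WT dCLN, 5xFAD sCLN, WT sCLN, 5xFAD iLN and WT iLN. Of IgM cells, 0.579% (0.278% to 1.06%) were, against 0% to 0.321%. The highest IgM cell had 1566 heavy UMIs, and 7 of the 10 IgM cells had no V mismatch. The 20 switched cells had a mean V mutation of 1.87% (SD 1.67), against 2.32% (SD 2.19) in the other 149 switched cells, and this difference was not tested.

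The 5 cells of most heavy UMIs had 5803, 5475, 4940, 4045 and 3601, and 3 of them used IGHV8-8 (chromosome 12, 115294062 to 115294504). Their junctions are printed with capitals for bases that the authors' annotation assigns to none of V, D and J. The cell of 3601 UMIs had 1 V mismatch, the other 4 had 7 to 11.
IGHV8-8 IGHJ1, IgG2b, IGKV12-46, 5803 UMIs: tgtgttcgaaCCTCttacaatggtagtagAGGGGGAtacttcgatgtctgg
IGHV1-64 IGHJ1, IgG2c, IGKV6-15, 5475 UMIs: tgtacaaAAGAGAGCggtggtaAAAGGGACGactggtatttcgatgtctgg
IGHV14-1 IGHJ4, IgG2c, IGKV1-133, 4940 UMIs: tgtacGGTCGTtatggactactgg
IGHV8-8 IGHJ3, IgG2c, IGKV2-109, 4045 UMIs: tgtgttcgaatagGAGGGgcttactgg
IGHV8-8 IGHJ1, IgG2c, IGKV12-44, 3601 UMIs: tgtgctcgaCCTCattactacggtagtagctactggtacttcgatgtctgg

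High cells of the same clone occurred together in 3 cases, singled out after their values were seen. The cell of 4045 UMIs had a partner of 3195 UMIs with the same junction and the same IGKV2-109 chain, with 11 and 8 V mismatches. An IGHV1-80 and IGHJ4 junction of 5 CDR3 amino acids, with IGKV8-24, occurred in IgG2c cells of 3280 and 1503 UMIs with 7 and 9 mismatches. An IGHV1-26 and IGHJ2 junction with IGKV10-96 occurred without any V mismatch in an IgG2c cell of 2401 UMIs and an IgG2b cell of 322 UMIs, so 1 clone held both classes. These junctions follow, with capitals as for the 5 highest cells.
IGHV1-80 IGHJ4, 2 cells: tgtgcgagGGGggactactgg
IGHV1-26 IGHJ2, 2 cells: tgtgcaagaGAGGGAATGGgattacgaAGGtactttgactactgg

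**Figure D3:**
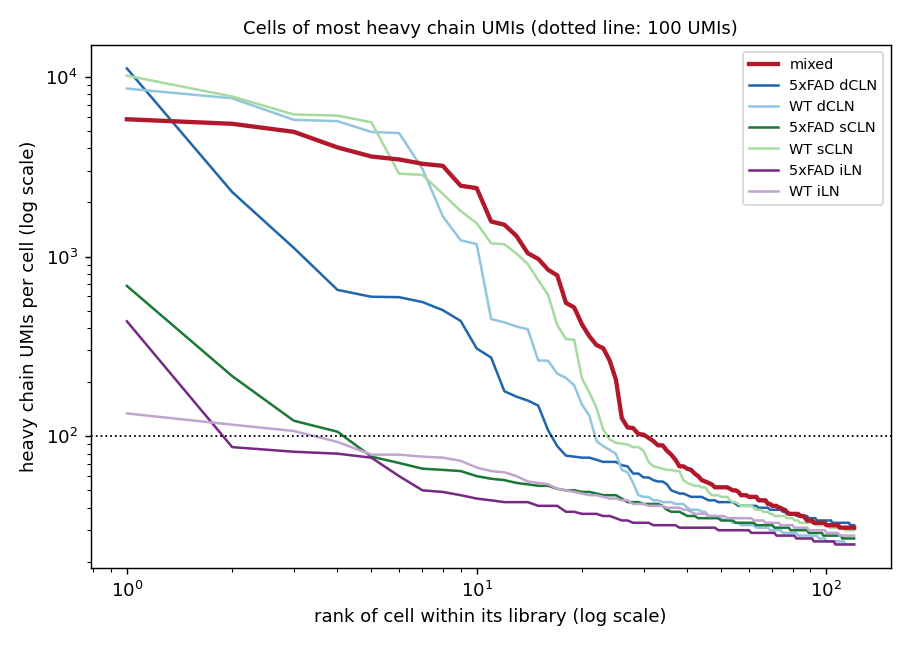
Heavy chain UMIs per cell against the rank of the cell in its library, for the 120 highest cells of each library, both axes on a log scale, with a dotted line at 100 UMIs. The mixed library crosses the line at rank 30 and the WT sCLN, WT dCLN and 5xFAD dCLN libraries at ranks 23, 21 and 16; single cells of those 3 node libraries reach higher counts (up to 11129 UMIs) than its highest cell (5803).

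Light chains were kappa in most cells. Lambda chains, which few mouse B cells use, were in 5.87% (4.97% to 6.87%, 145 of 2472 cells), against 4.12%, 4.34%, 4.41%, 5.09%, 4.69% and 4.79% in the 5xFAD dCLN, WT dCLN, 5xFAD sCLN, WT sCLN, 5xFAD iLN and WT iLN. This was above all 6 and separate from 1. IGLV1 (4.53% against 3.34% to 3.92%) and IGLV3 (0.850% against 0.311% to 0.643%) were above the range, and IGLV2 (0.485% against 0.392% to 0.670%) inside it. The kappa J genes all fell in the range, with 30.4% IGKJ1, 30.5% IGKJ2, 14.1% IGKJ4 and 25.0% IGKJ5.

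A second light chain was held by a larger share of cells than in any node library. There were 300 cells with 2 or more productive light chains, 12.1% (10.8% to 13.4%), against 8.22%, 9.60%, 7.60%, 7.79%, 7.50% and 8.36% in the same order, separate from all 6. Of these, 274 paired kappa with kappa, 24 kappa with lambda and 2 lambda with lambda. Some mouse B cells are known to express both alleles of a light chain. The second chain had a median of 0.556 times the UMIs of the first, against 0.568 to 0.618. Its junction was that of a cell with 100 or more heavy UMIs in 6.44% of cases, against 0% to 4.92%, and the same held for 7.64% of barcodes with light chains alone, against 0.426% to 3.89%. The libraries differ in how many such cells they have, and the 4.92% was found in the WT iLN, which had 3. Identical light junctions also recur beside different heavy chains. A light junction of the IGHV2-9-1 clone was in 78 barcodes of the mixed library, 69 of them with another heavy chain. The part of such recurrence, free RNA or doublets in the second chains was not tested. For heavy chains, 1 cell under 100 UMIs carried the junction of a high cell, against 0 to 2 in the node libraries.

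Before V use was compared, the germline calls were checked, since the mixed table proved to be annotated against another germline set than the other 6. All 182 V calls found in both had the same germline sequence. A further 11 V calls occurred in the mixed library alone, on 3.67% of its contigs, and 31 in the node libraries alone, and 20.3% of heavy D calls of the mixed library named a D segment that none of the others named. V genes that were named differently or jointly were therefore merged before counting, IGHV2-5 with IGHV2-5D for example, and D segments were not compared.

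Of 45 heavy chain V genes at 1% or more of a library, the mixed share was separate from all 6 node libraries for none, so that 0% were called, and likewise for 0 of 49 light chain V genes, again 0%. In the range itself, 12 heavy chain genes were above, 12 below and 21 inside, and 6 light chain genes were above, 6 below and 37 inside. The 10 most used were IGHV1-26 (5.47%), IGHV9-3 (3.86%), IGHV2-2 (3.70%), IGHV1-64 (3.22%), IGHV3-6 (3.18%), IGHV1-72 (3.05%), IGHV1-81 (2.85%), IGHV1-9 (2.69%), IGHV5-17 (2.65%) and IGHV1-53 (2.53%). IGHV1-26 was just below its range of 5.54% to 6.95%, and IGHV2-2 above its range of 2.28% to 3.55%. Among genes farther from the range, named after their values were seen, IGHV1-85 had 1.41% against 0.455% to 0.897%, IGHV1-82 1.61% against 2.24% to 2.82% and IGHV1-80 1.49% against 2.09% to 2.97%. The most used light chain genes were IGKV10-96 (4.69%), IGLV1 (4.53%), IGKV1-117 (4.45%), IGKV6-15 (4.29%) and IGKV1-135 (3.76%).

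By family the mixed library leaned away from IGHV1. This family, the largest of the mouse, made up 53.5% of cells (51.5% to 55.5%), against 58.1% in the 5xFAD dCLN, 56.7% in the WT dCLN, 59.1% in the 5xFAD sCLN, 58.7% in the WT sCLN, 57.7% in the 5xFAD iLN and 57.9% in the WT iLN. It was below all 6 and separate from 5. Without calls that name several genes it was 54.4% (52.4% to 56.4%) against 57.2% to 59.6%, below all 6 and separate from 3. The families nearest to the D segments, IGHV2 (8.88% against 6.41% to 8.09%) and IGHV5 (9.69% against 7.94% to 9.41%), were above the range, IGHV2 separate from 2 libraries. IGHV6 was above it as well, at 2.97% against 2.00% to 2.38%, as were the small families IGHV10 (1.81% against 1.02% to 1.71%), IGHV11 (0.161% against 0% to 0.136%) and IGHV13 (0.442% against 0.203% to 0.409%). The IGHV11 family had 4 cells, and IGHV11-2, with 3 of them, was inside its own range (0.121% against 0% to 0.136%). IGHV11-1 was called on 1 contig of the mixed library and on 0 of the node libraries. IGHV15 was below, at 0.0402% or 1 cell against 0.145% to 0.359%. Family names were not touched by the merging of gene names. The families were not called again with 1 germline set for all libraries.

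**Figure D4:**
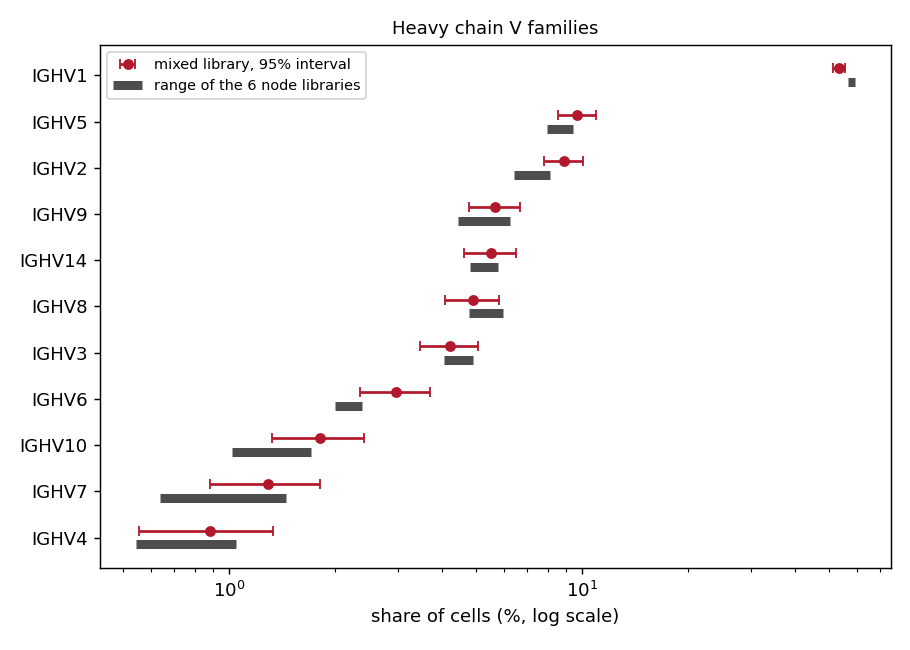
Share of cells by heavy chain V family on a log axis, for families at 0.5% or more of the mixed library. Red points are the mixed library with exact 95% intervals and grey bars the range of the 6 node libraries. IGHV1 lies left of its bar (53.5% against 56.7% to 59.1%), and IGHV2, IGHV5, IGHV6 and IGHV10 lie right of theirs.

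Of 5 V genes listed as typical of B-1 and other innate-like B cells, 4 were inside the node range and IGHV6-6 was above it. IGHV11-2 and IGHV12-3, whose products bind phosphatidylcholine, had 3 cells (0.121% against 0% to 0.136%) and 1 cell (0.0402% against 0.0256% to 0.0909%). IGHV7-1, known from anti-phosphorylcholine antibodies, had 8 cells (0.322% against 0.179% to 0.382%) and IGHV4-1 had 22 (0.884% against 0.545% to 1.05%). IGHV6-6 had 33 (1.33% against 0.617% to 1.27%) and was separate from none of the 6.

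All receptors that the mixed library shared with node libraries by both junctions used 2 of these genes. Counted once for each pair of libraries, identical heavy chain junctions were found 10 times, and with an identical light chain junction 6 times. These 6 were 3 distinct receptors. Counted the same way, node libraries of the same genotype had 11 such matches and those of different genotypes 3. The 89 barcodes that the mixed library shared with node libraries, 9 to 22 per library, carried the same heavy junction in 0 cases. All 3 receptors shared by both junctions were IgM without N bases. An IGHV4-1 and IGKV1-110 receptor was in 2 cells of the mixed library, and in 5 cells of the 5xFAD dCLN, 1 of the WT dCLN and 1 of the WT iLN. An IGHV11-2 and IGKV14-126 receptor was shared with the WT dCLN and the WT sCLN, and a second one with the WT iLN. They are printed in lower case throughout, as no base falls outside V, D and J.
IGHV4-1 IGHJ1, shared with 3 node libraries: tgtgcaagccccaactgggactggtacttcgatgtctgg
IGHV11-2 IGHJ1, shared with 2 node libraries: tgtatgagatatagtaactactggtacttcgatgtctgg
IGHV11-2 IGHJ1, shared with 1 node library: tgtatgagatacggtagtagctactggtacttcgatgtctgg

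Heavy chain CDR3 length averaged 12.00 amino acids (SD over cells 2.68, n = 2488), just below the node means of 12.02 to 12.17, and 12.1 in switched cells. Long CDR3s of 18 or more amino acids were in 1.85% of cells against 1.54% to 2.19%, and short ones of 8 or fewer in 9.61% against 7.83% to 9.69%. The share of heavy chains without any N base was 1.53% (1.08% to 2.09%), against 1.07% to 2.05%. The first N region averaged 4.28 bases against 4.47 to 4.60 and the second 2.95 against 2.93 to 3.03, but these lengths depend on which D segments the annotation knows. Each J gene lay just outside its range, with 20.8% IGHJ1 (18.1% to 19.8%), 35.4% IGHJ2 (33.0% to 34.1%), 20.5% IGHJ3 (21.4% to 23.5%) and 23.3% IGHJ4 (24.2% to 26.7%), and none was separate from all 6.

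**Figure D5:**
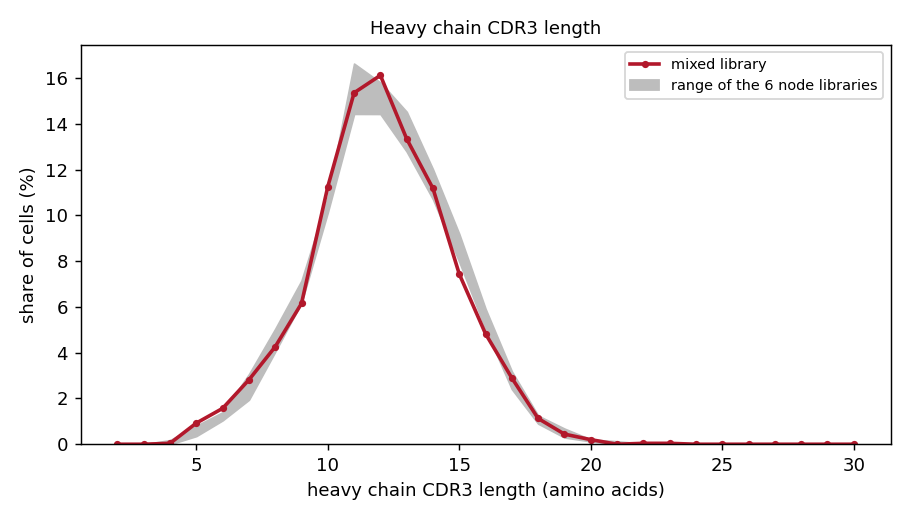
Share of cells by heavy chain CDR3 length in amino acids, for the mixed library (red line) and the range of the 6 node libraries (grey band). The line leaves the band at several lengths, among them 12 amino acids (16.1% against at most 15.8%) and 15 (7.44% against at least 7.97%), by less than 1 percentage point at these lengths.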

How the data were processed

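Single-cell V(D)J libraries were made from lymph node cells with a 5′ Chromium kit after hashtag labelling, per the labels' protocols. The submitters' processing notes list Cell Ranger 6.0.1, Seurat 4.1.0 and mm10, and give no step to any of them. The germline set is not given in the sources used here. Each line of the deposited tables is 1 productive contig. UMIs and reads are counts as the authors deposited them. The V identity is a fraction that the authors deposited and served as an alternative to counted mismatches. Per the file headers, lengths of junctions and N regions are in bases.

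Cells had exactly 1 heavy chain. Mutation was counted from the deposited alignments, and 2 mixed contigs had none. A cell's light chain was that of most UMIs. V names were merged where annotations named them differently (5 contigs or more) or jointly (20 or more). Clones were single linkage at 0.15 of the junction, averaged over 1000 draws of 2107 cells. Intervals are Clopper-Pearson, and cells of a clone are not independent. A count of 0 allows 3 counts. No doublet caller was run. Named genes followed a rule: all isotypes and families, J and light chain loci, the 10 heavy and 5 light chain V genes most used, genes separate from all 6 libraries, the 5 largest clones, the 5 highest cells, shared receptors, and lists of innate-like and D-proximal genes. Members and lists were chosen with earlier results of these data known. Coordinates are GENCODE M21 on GRCm38, where 26 of 27 names were found. Python 3.11.15, pandas 2.3.3 and scipy 1.17.1 were used, and the steps were tested on simulated data.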

Additional observations from a re-analysis of the deposited data

How the results depend on the processing

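Of 143 alternatives over 22 results, 127 stayed within the mixed library's interval (or 1.5 times a count) and 16 moved. For shares and means this was judged on the mixed value alone, not on its place beside the node libraries. Counting each clone once left the share of mutated unswitched cells and the IgG2c share of switched cells within their intervals. Each was then separate from 3 libraries, against 6 and 5 before. The IgD share was 21.2% with at least 3 heavy UMIs and 17.2% weighted to the node libraries' UMIs. With each clone counted once the switched share was 5.40%, the IgG share 4.96% and the mean mutation of switched cells 1.89%. Mutated unswitched cells were 0.661% at a 2% limit with all V calls kept, and cells of at least 50 UMIs 2.26%, separate from 5 libraries. The share in clones, 9.05%, was 7.06% at a distance of 0.10, 14.4% at 0.20, 5.19% with identical junctions, 5.54% in half-size draws and 5.41% with the same light chain; counting barcodes with identical receptors as 1 cell gave 5.28%, above the node range of 3.00% to 4.64% then found. Leaving out joint calls made 1 heavy chain V gene separate from all 6, IGHV2-5/2-5D, which the annotations call jointly to unequal extents. Among genes at 2% use or more, an alternative chosen after seeing the data, 12 heavy and 7 light chain V genes were outside the node range. Fewer genes were tested there than the 45 heavy and 49 light chain genes above, so lower counts do not mean smaller shares. No paired analysis was possible because each group is 1 library and replicate numbers were given in accession order. The IgG1 share of switched cells rests on 4 cells; with at least 3 heavy UMIs it was 2.61%, still separate from 5 libraries. Shares of rare classes have wide intervals at this number of cells.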
